A study of Mus musculus with 100 samples.

Results

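The GATA transcription factor family of the mouse has 6 members, Gata1 to Gata6, and was chosen here by name. All 6 were found, each as 1 transcript, among the 23109 gene-level entries of the deposited RNA tables. Their RNA was measured in 37 libraries of 18 groups, which come from a study of the histone methyltransferases MLL3 (Kmt2c) and MLL4 (Kmt2d) in mouse embryonic stem cell differentiation and in embryos. Of these groups 3 hold 1 library, 11 hold 2 and 4 hold 3.

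All cultured cells lacked Mll3. The reference cells were Mll3-/-;Mll4flox/flox ("flox") and the compared cells Mll3-/-;Mll4KI/KI ("KI"), the latter as clones 27 and 48, so that each KI library of a group is 1 clone. Stem cells (ESCs) were kept in 2i and LIF, and embryoid bodies (EBs), which differentiate as floating aggregates, were taken at days 4 and 10. Neural cultures came from aggregates treated with retinoic acid and were taken at day 8 (progenitors) and day 16 (neurons). Trophectoderm cultures were taken at day 6 and carry a doxycycline-inducible lentivirus for T7-tagged CDX2, and extraembryonic endoderm cultures, grown with Activin A and retinoic acid, were taken at day 5. The embryos, taken whole at E8.5 or E9.5, were Mll3flox/KI;Mll4flox/KI;Sox2-Cre ("KI") or Mll3flox/KI;Mll4flox/+;Sox2-Cre ("control"), so both embryo groups carry an Mll3 KI allele and Cre. Sox2-Cre acts in the epiblast and its descendants. What KI stands for is not written in the labels, nor is it said whether the flox libraries 1 and 2 are separate lines or cultures, so p-values measure the spread between these libraries.

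GATA factors are zinc finger proteins that bind DNA at sites built on the letters GATA. GATA1 and GATA2 are known for blood formation, GATA1 in red cells and megakaryocytes and GATA2 in stem and progenitor cells. GATA2 and GATA3 also act in trophoblast, the outer lineage of the early embryo, and GATA3 in T cells, ear, kidney and sympathetic neurons. GATA4 and GATA6 act in primitive endoderm and its extraembryonic derivatives, and GATA4, GATA5 and GATA6 in heart and gut. MLL3 and MLL4 place H3K4 monomethylation at enhancers.

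Levels are CPM (counts-per-million of the gene-level reads of a library) and, between genes, the deposited RPKM, which is per length. Gene-level totals were 18.9 to 59.9 M reads, so 3 reads, the most that a count of 0 allows, equal 0.0501 to 0.159 CPM. This limit and all counting intervals cover counting error only. Without a stated use of strand in the counting, reads of Gata5 and Gata6 cannot be told apart from those of the antisense RNAs Gata5os and Gata6os. Markers were checked against the labels. The summed CPM of 20 endoderm and basement membrane genes was 13100 to 13330 in flox extraembryonic endoderm and 3180 to 3248 in flox trophectoderm, and that of 11 neuron genes was 5597 to 9094 at neural day 16. Prl3d1, a giant cell hormone gene of the trophoblast list, had at most 3 reads in every trophectoderm library.

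In the stem cells the family was close to silent. Its summed RPKM was 1.32 in flox and 1.44 to 1.61 in KI, against 191 in flox EBs at day 10. Gata4 and Gata6 led in most differentiated flox and control groups, with 43.7% and 47.1% of the summed RPKM in flox EBs at day 10, 53.4% and 35.4% in flox extraembryonic endoderm, 43.4% and 39.1% in flox neural cultures at day 8 and 26.4% and 32.0% in E8.5 controls. Gata2 held 62.6% in flox trophectoderm, and Gata6 held 77.8% in flox neural cultures at day 16. Among the flox and control groups embryos were the most even, with shares of 6.89% (Gata1) to 32.0% (Gata6) at E8.5 and a largest share of 30.2% (Gata6) at E9.5.

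**Figure D1:**
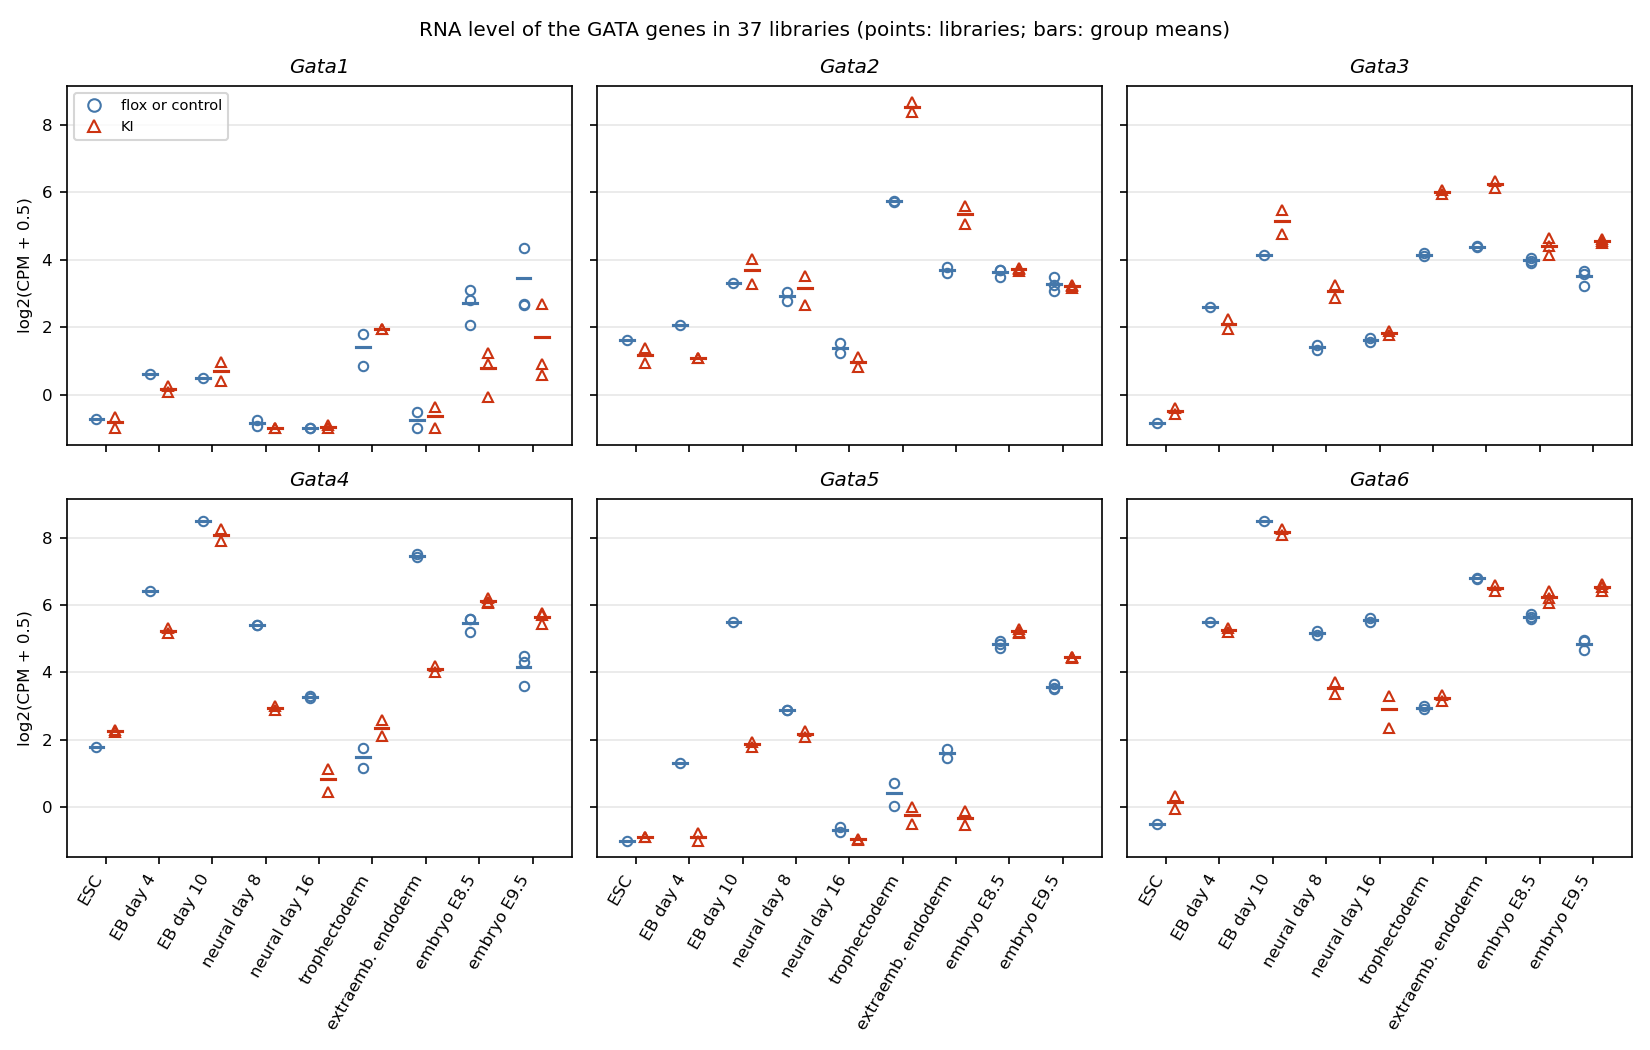
RNA level of each GATA gene in 37 libraries, as log2(CPM + 0.5), by setting. Circles are flox or control libraries, triangles KI libraries and bars group means. Gata2 is highest in trophectoderm, Gata4 and Gata6 in EBs at day 10 and then flox extraembryonic endoderm, and Gata1 in control embryos.

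Among the 18 groups, Gata1 was highest in control embryos, at 10.5 ± 8.00 CPM (SD, n = 3) at E9.5 and 6.04 ± 2.24 (n = 3) at E8.5, 2 groups whose ranges overlapped. It was next in KI trophectoderm (3.34 ± 0.0481, n = 2), which overlapped with KI embryos at E9.5 (2.78 ± 2.77, n = 3), and had 0 to 6 reads in every stem cell, neural and extraembryonic endoderm library. Gata2 was highest in KI trophectoderm, at 367 ± 52.8 CPM (n = 2), followed by flox trophectoderm (52.8 ± 0.849) and KI extraembryonic endoderm (40.0 ± 10.6), and these 3 groups did not overlap. The next groups of Gata2, from KI embryos at E8.5 (12.7 ± 0.409) to flox extraembryonic endoderm (12.4 ± 1.04), did not differ beyond their spread. Gata3 was highest in KI extraembryonic endoderm (74.5 ± 8.00, n = 2) and KI trophectoderm (63.7 ± 4.27), whose ranges did not overlap.

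Gata4 was highest in EBs at day 10 (356 CPM in 1 flox library and 272 ± 45.9 in KI, n = 2), then in flox extraembryonic endoderm (176 ± 9.76, n = 2). Gata6 had the same first 3 groups, at 362, 287 ± 25.0 and 110 ± 0.495 CPM. Gata5 was highest in the flox EB library of day 10 (44.7 CPM) and in embryos (11.4 to 36.8 CPM as group means), and lay under 7 CPM in every other group mean. On the length-corrected scale Gata2 in KI trophectoderm (88.4 ± 13.9 RPKM) stood near Gata4 and Gata6 in flox EBs of day 10 (83.4 and 90.0 RPKM).

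Promoter sequences are shown for Gata2 and Gata3, the pair that was higher in KI in both extraembryonic cultures, and for Gata1, which held the fewest CG pairs of the 4 members in the promoter table (Gata1, Gata2, Gata3 and Gata5). They are the 250 bases before a start site in RefSeq (GRCm38.p6), on the gene's strand, with each CG pair in capitals. The table gave 5 promoters of these 4 members, those of Gata4 and Gata6 were not used here, and each window is upstream of the transcript.
Gata1 (chrX:7967911-7968160, minus strand): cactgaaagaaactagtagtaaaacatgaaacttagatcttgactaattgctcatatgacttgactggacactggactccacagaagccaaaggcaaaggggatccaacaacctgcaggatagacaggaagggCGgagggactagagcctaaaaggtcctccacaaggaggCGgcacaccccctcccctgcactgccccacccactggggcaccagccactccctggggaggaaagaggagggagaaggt
Gata2, first start (chr6:88193641-88193890, plus strand): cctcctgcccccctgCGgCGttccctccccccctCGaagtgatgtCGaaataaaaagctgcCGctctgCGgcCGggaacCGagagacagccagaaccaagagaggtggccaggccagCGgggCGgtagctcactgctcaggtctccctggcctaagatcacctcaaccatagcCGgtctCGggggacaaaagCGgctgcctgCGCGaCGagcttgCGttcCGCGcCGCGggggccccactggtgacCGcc
Gata2, second start (chr6:88198414-88198663, plus strand): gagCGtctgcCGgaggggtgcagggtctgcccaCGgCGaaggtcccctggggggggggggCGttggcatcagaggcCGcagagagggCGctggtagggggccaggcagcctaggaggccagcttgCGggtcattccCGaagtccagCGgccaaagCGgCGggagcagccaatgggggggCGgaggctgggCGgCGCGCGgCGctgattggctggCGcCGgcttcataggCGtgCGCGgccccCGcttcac
Gata3 (chr2:9878601-9878850, minus strand): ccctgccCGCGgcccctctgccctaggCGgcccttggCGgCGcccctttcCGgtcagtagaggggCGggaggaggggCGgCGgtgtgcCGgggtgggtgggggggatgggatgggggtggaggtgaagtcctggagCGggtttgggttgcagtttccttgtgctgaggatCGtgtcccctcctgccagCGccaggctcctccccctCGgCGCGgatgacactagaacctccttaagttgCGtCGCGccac
Gata1 held 2 CG pairs and 54.0% G or C, Gata2 22 and 24 pairs (67.2% and 74.0%), and Gata3 19 (70.0%), against medians of 6 pairs and 52.4% over 32851 promoters. Gata5 (22 pairs, 70.0%) was like Gata2 and Gata3 in this. The letters AGATAA or TGATAA, sites that GATA proteins bind, were searched on both strands and found in none of the 5 windows, while 16.6% of all 32851 windows held at least 1. These are descriptions of the windows and say nothing of binding.

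In trophectoderm cultures, 4 of the 6 GATA genes were called higher in KI and none lower (called: edgeR quasi-likelihood test, adjusted p under 0.05 over all genes), with 50.9% of all 15532 genes called, 26.7% higher and 24.2% lower. The median log2 fold change of the 6 was 0.85, against 0.005 over all genes. Gata2, a trophoblast regulator, had 52.2 and 53.4 CPM in the flox libraries and 405 and 330 CPM in KI clones 27 and 48. Both KI clones lay far above both flox libraries, with a log2 fold change of 2.83 (SE 0.19, edgeR adjusted p = 3.41e-05). Gata3, its trophoblast partner, had 17.8 and 16.6 CPM in flox and 66.7 and 60.6 CPM in KI. It rose in both clones alike (1.92, SE 0.10, adjusted p = 3.43e-09). In these bulk libraries a change in the number of cells of a type and in RNA per cell cannot be told apart.

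The endoderm members were low in trophectoderm. Gata4 had 2.88 and 1.77 CPM in flox and 3.82 and 5.48 CPM in KI, and was called higher (1.04, SE 0.23, adjusted p = 0.00277), a value that fell to 0.69 without flox library 2. Gata6 had 7.49 and 6.99 CPM in flox and 9.63 and 8.31 CPM in KI, a small call (0.34, SE 0.12, adjusted p = 0.0262) that was lost in 5 of 9 alternatives, among them the fits without flox library 1, without flox library 2 and without KI clone 27. Gata5 (0.538 to 1.15 CPM in flox and 0.218 to 0.509 in KI) and Gata1 (1.31 to 3.00 in flox and 3.31 to 3.38 in KI) were not called. The summed RPKM of the family went from 18.8 and 20.2 in the flox libraries to 97.9 and 119 in KI, and Gata2 held 81.3% of it in KI.

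Cdx2 itself, the gene delivered by the lentivirus, measured 28.5 ± 2.01 CPM in flox and 105 ± 2.97 in KI trophectoderm (SD, n = 2 each), and the tables do not separate the delivered copy from the endogenous gene. Its part in the GATA result was not tested. Of 13 tested trophoblast genes, 11 rose in KI, Cdx2 among them, and 1 fell, with a median log2 of 1.22. Tfap2a, an AP-2 factor, rose by 2.72, Ascl2, a placental bHLH factor, by 2.02, and Elf5, an ETS factor of trophoblast stem cells, fell by 3.79. The summed CPM of the 15 listed trophoblast genes, Cdx2 included, was 3504 to 3586 in flox and 6149 to 6373 in KI. Of 12 pluripotency genes 10 fell and none rose (median -1.34), with summed CPM of 1227 to 1262 in flox and 452 to 589 in KI. Sox2 fell by 3.00 (SE 0.14).

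Among 7 tested partner proteins of GATA factors in trophectoderm, 3 rose and 1 fell. Lmo2, a bridging protein of GATA complexes, rose (3.27, SE 0.70), as did Cbfa2t3, a corepressor (1.05, SE 0.19), and Zfpm2 (FOG2), a cofactor of GATA4, fell (-1.84, SE 0.37). Of 9 other genes with a GATA-type zinc finger 3 rose, led by Mta3 (0.71, SE 0.08), and 1 fell, Gatad1 (-0.54, SE 0.08).

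In extraembryonic endoderm cultures, 2 members were called higher and 3 lower in KI, with 35.5% of all genes called (18.1% higher and 17.4% lower). Gata2 had 13.1 and 11.7 CPM in flox and 47.5 and 32.5 CPM in KI, a rise of 1.66 on the log2 scale (SE 0.22, adjusted p = 0.00147). Gata3 had 20.7 and 20.0 CPM in flox and 80.2 and 68.8 CPM in KI (1.84, SE 0.10, adjusted p = 9.49e-09). The KI libraries of both genes lay above both flox libraries.

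Gata4, a driver of primitive endoderm, had 170 and 183 CPM in flox and 15.5 and 17.7 CPM in KI (-3.44, SE 0.15, adjusted p = 1.86e-08). Gata5 had 2.81 and 2.25 CPM in flox and 0.422 and 0.202 CPM in KI, the latter 9 and 4 reads (-3.02, SE 0.65, adjusted p = 0.00214). Gata6, which acts beside GATA4 in this lineage, had 110.3 and 109.6 CPM in flox and 85.6 and 96.3 CPM in KI. It fell by only 0.30 (SE 0.09, adjusted p = 0.0143), and without flox library 1, flox library 2 or KI clone 27 the call was lost (-0.30, -0.31 and -0.22). The RPKM ratio of Gata4 to Gata6 was 1.45 and 1.57 in flox and 0.171 and 0.173 in KI. Gata1 had 4 and 0 reads in flox and 6 and 0 in KI and was not called.

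The makeup of the family changed with these values. In flox extraembryonic endoderm Gata4 and Gata6 held 53.4% and 35.4% of the summed RPKM, and in KI Gata6 (41.4%) and Gata3 (33.5%) led while Gata4 held 7.11%. The summed RPKM fell from 76.0 and 78.4 to 53.2 and 56.5. Endoderm genes were also lower in KI: 17 of 20 fell and none rose. Their median log2 was -2.79, also with the genes at 0 reads in KI set to their bound. The part of endoderm cells in the GATA values was not tested. Sox17, an endoderm factor, had 76.5 ± 8.34 CPM in flox and 11.3 ± 0.111 in KI (SD, n = 2 each). Apoa1 and Ttr, secreted proteins of visceral endoderm, had 0 reads in KI and were at least 108-fold and 289-fold lower (against 3 reads over the group). Of 13 trophoblast genes 8 rose and 2 fell, with Esx1 (2.75, SE 0.14) and Krt7 (2.36, SE 0.20) higher and Eomes (-2.74, SE 0.17) lower. Of 7 partner genes none rose and 2 fell, Runx1 (-0.85, SE 0.11) and Ldb1 (-0.14, SE 0.05), and of 9 other GATA-type zinc finger genes Mta3 rose by 0.26 and Rere fell by 0.19.

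**Figure D2:**
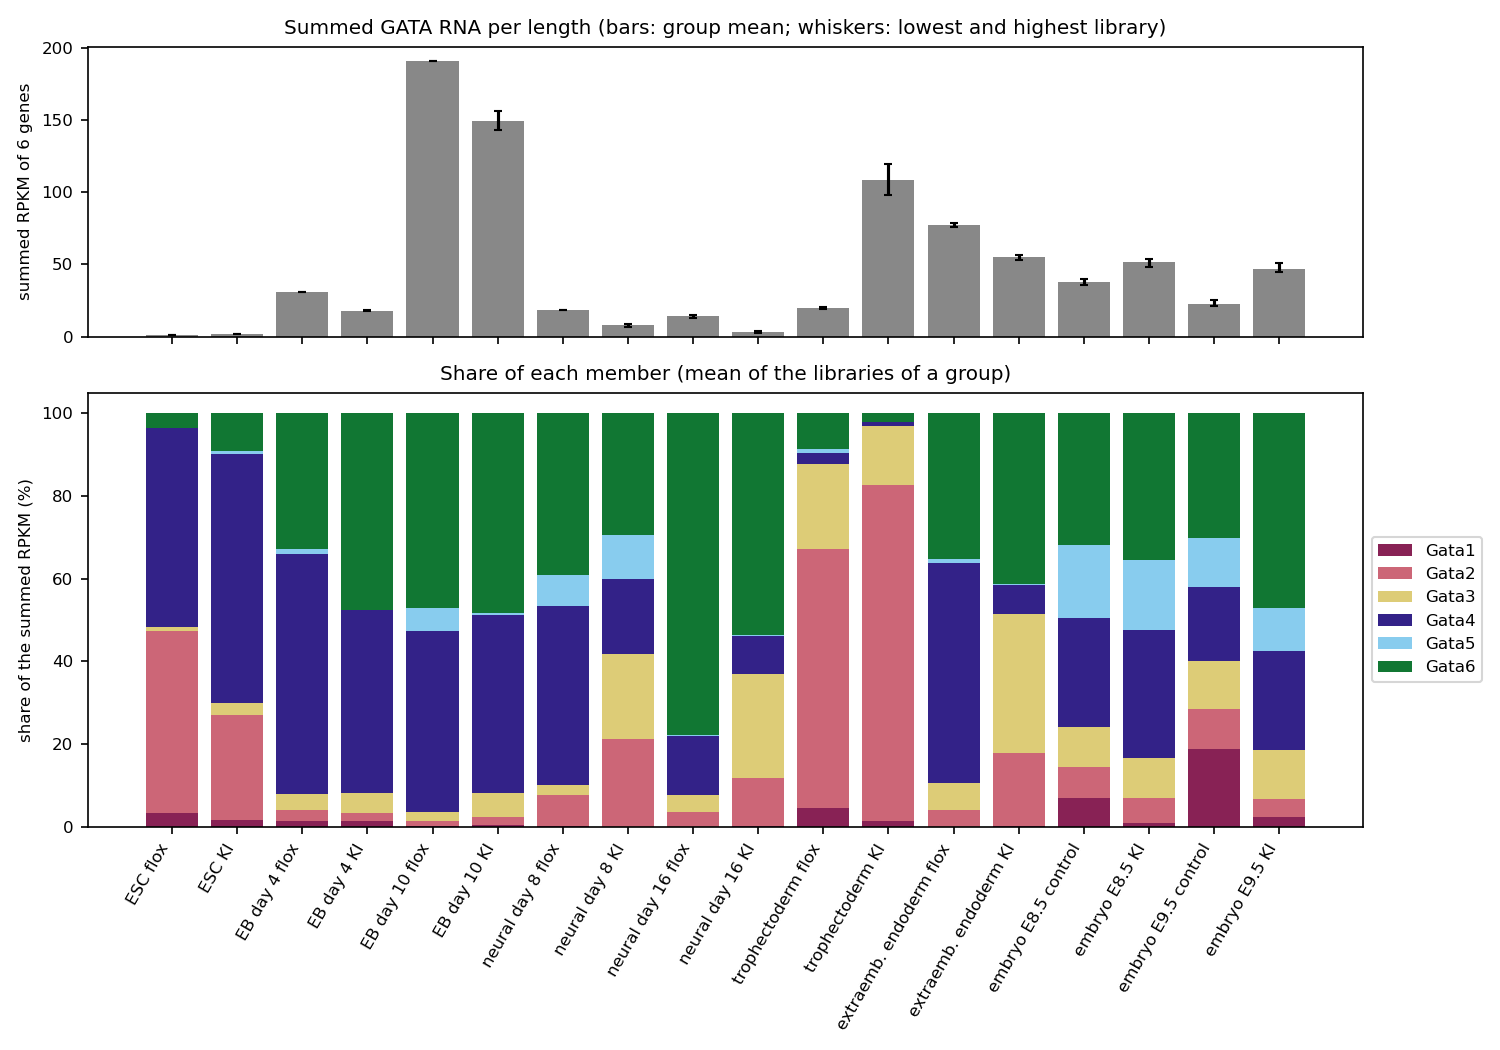
Summed deposited RPKM of the 6 GATA genes in 18 groups (upper panel; bars are group means and whiskers the lowest and highest library) and the share of each gene in that sum (lower panel, percent). In extraembryonic endoderm the Gata4 share goes from 53.4% in flox to 7.11% in KI, and in trophectoderm Gata2 makes up most of the sum in both genotypes.

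The difference between the 2 extraembryonic cultures was compared within each genotype, with 64.7% of all genes called in flox (32.5% higher and 32.2% lower) and 63.1% in KI (30.8% higher and 32.3% lower). All 6 members differed in flox and 5 of 6 in KI. Gata4 was 6.34 higher in flox extraembryonic endoderm than in flox trophectoderm on the log2 scale (SE 0.18, edgeR adjusted p = 1.33e-10), but 1.86 higher in KI (SE 0.18, adjusted p = 2.44e-06). Gata6 was 4.02 higher in flox (SE 0.11) and 3.37 higher in KI (SE 0.10). Gata2 went the other way, lower in endoderm by -1.9985 in flox (SE 0.21) and by -3.17 in KI (SE 0.19). Gata1 was also lower in endoderm (-4.28 in flox and -4.45 in KI), on 4 and 6 reads over the endoderm libraries.

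Gata3 separated the cultures little, at 0.33 in flox (adjusted p = 0.0135) and 0.26 in KI (adjusted p = 0.0276). Its call was lost in flox without flox trophectoderm library 2 or flox endoderm library 1, and in KI without clone 48 in trophectoderm or clone 27 in endoderm. Gata5 was higher in flox endoderm (1.67, SE 0.56, adjusted p = 0.017), a call lost without flox trophectoderm library 2 or either flox endoderm library, and was not called in KI (-0.18). The difference of the KI effect between the cultures was itself tested, with 35.3% of all genes called (18.3% lower). It was called for 3 members, each with the lower KI effect in endoderm: Gata4 (-4.48, SE 0.27, adjusted p = 3.29e-07), Gata2 (-1.17, SE 0.28, adjusted p = 0.0204) and Gata6 (-0.65, SE 0.15, adjusted p = 0.00345). The Gata2 difference lost its call without the filter on low counts, without either flox trophectoderm library and without flox endoderm library 1. The difference for Gata3 was -0.08 (adjusted p = 0.706).

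**Figure D3:**
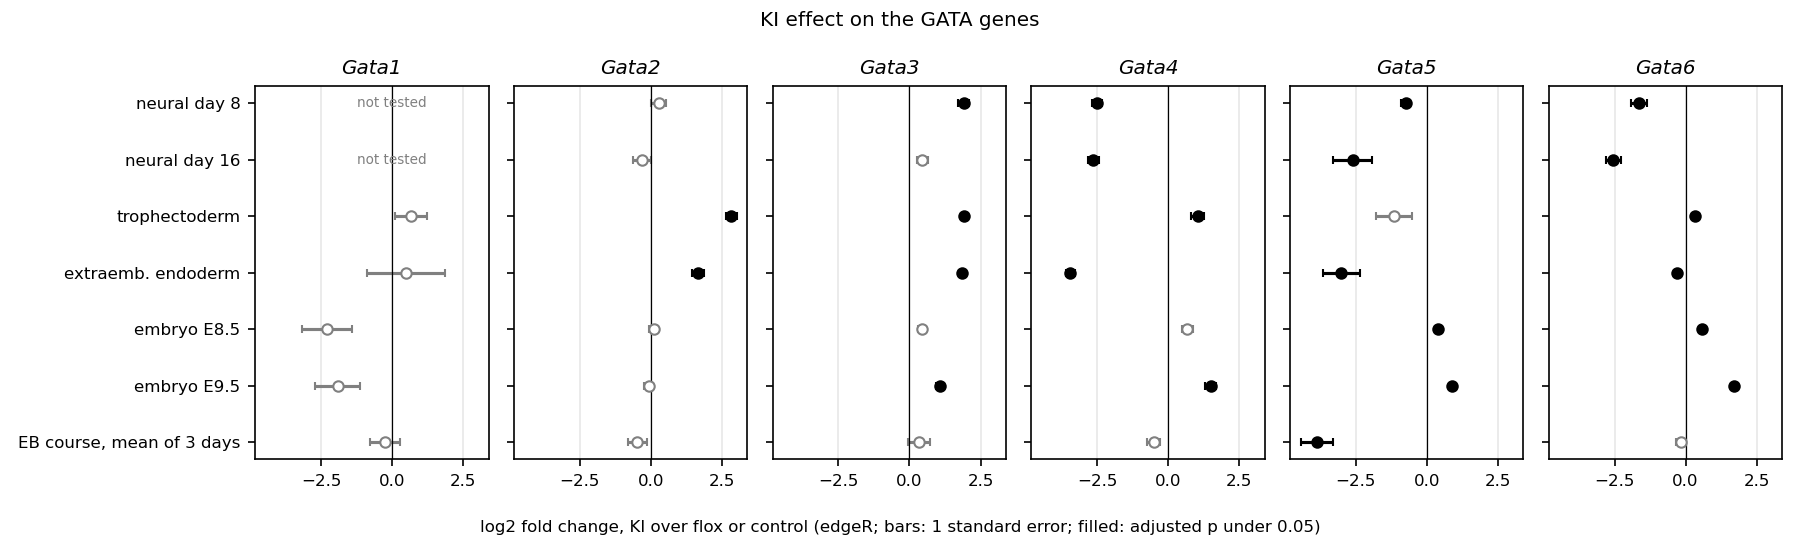
Log2 fold change of KI over flox or control for each GATA gene in 7 comparisons (edgeR; bars are 1 standard error; filled points have an adjusted p under 0.05). Gata4 is lower in KI neural and extraembryonic endoderm cultures and higher in KI trophectoderm and E9.5 embryos.

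In whole embryos at E8.5, 2 members were called in KI, both higher, where 5.46% of all genes were called (3.63% higher and 1.83% lower). Gata6 had 49.3, 52.3 and 47.4 CPM in the controls and 73.8, 65.6 and 85.6 CPM in KI, so that every KI embryo lay above every control (0.60, SE 0.10, edgeR adjusted p = 0.000916). Gata5, a heart and endoderm factor, had 28.1, 30.3 and 26.1 CPM in controls and 38.5, 36.4 and 35.5 CPM in KI (0.39, SE 0.10, adjusted p = 0.0258). The 2 groups did not overlap, yet the Gata5 call was lost without control 1, control 3 or any of the 3 KI embryos (0.34 to 0.42). Gata4 had 47.1, 47.8 and 36.1 CPM in controls and 74.0, 67.4 and 65.8 CPM in KI (0.66, adjusted p = 0.0769). Gata3 had 14.5, 16.1 and 15.2 CPM in controls and 17.1, 20.5 and 24.3 CPM in KI (0.44, adjusted p = 0.0739), and was called without KI embryo 1 (0.55).

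Gata1, the red cell factor, had 3.63, 6.44 and 8.05 CPM in controls and 1.86, 0.454 and 1.38 CPM in KI. The groups did not overlap, with a log2 fold change of -2.29 (SE 0.87, adjusted p = 0.187). Gata2 was not called (0.10, adjusted p = 0.772; 10.6 to 12.5 CPM in controls and 12.2 to 13.0 in KI). The embryos carry a number in their titles that occurs once in each group, and a fit with this number as a block called 5 members and 8.68% of all genes. With this replicate block Gata1 was lower (-2.31, adjusted p = 0.0233) and Gata3 (0.43, adjusted p = 0.0422), Gata4 (0.68, adjusted p = 0.000235), Gata5 and Gata6 were higher.

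At E9.5, 4 members were called higher in KI and none lower, where 29.5% of all genes were called (14.6% higher and 14.9% lower). Gata6 had 30.5, 24.6 and 29.8 CPM in controls and 84.4, 93.0 and 98.2 CPM in KI (1.70, SE 0.10, adjusted p = 1.22e-09). Gata4 had 21.9, 19.2 and 11.6 CPM in controls and 51.8, 42.8 and 54.3 CPM in KI (1.49, SE 0.20, adjusted p = 0.00032). In both genes the lowest KI embryo lay well above the highest control. Gata5 had 10.9, 11.1 and 12.2 CPM in controls and 21.4, 21.1 and 21.4 CPM in KI (0.90, SE 0.10, adjusted p = 3.5e-06). Gata3 had 8.85, 12.3 and 11.4 CPM in controls and 23.9, 22.9 and 22.1 CPM in KI (1.08, SE 0.14, adjusted p = 1.38e-05). These 4 calls held in each of the 12 alternatives run.

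Gata1 at E9.5 had 5.80, 5.86 and 19.7 CPM in controls and 0.994, 1.37 and 5.97 CPM in KI (-1.92, SE 0.80, adjusted p = 0.11). The highest library of each group was replicate 3, and these 2 embryos carry the same title number, which the other 4 do not. Among embryos with the same title number every KI value lay below every control value. The overlap was between that KI embryo and the 2 lower controls, and without it the call was made (-3.13). A fit with the title number as a block also called Gata1 lower, though these numbers recur within a group. Gata2 had 8.93, 10.7 and 7.92 CPM in controls and 8.82, 8.45 and 8.97 CPM in KI (-0.08, adjusted p = 0.748). The summed RPKM of the family was 21.3 to 25.1 in controls and 44.9 to 51.0 in KI, with the Gata6 share at 30.2% and 47.0%.

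Heart genes were measured in the same embryos. At E9.5, 10 of 14 rose and none fell (median 1.14), led by Nkx2-5, a cardiac homeobox factor (2.00, SE 0.20), Myh7 (1.77) and Tnnt2 (1.43), and their summed CPM was 523 to 642 in controls and 1180 to 2063 in KI. At E8.5, 3 of 14 rose, Isl1 (0.86), Hand2 (0.64) and Tbx5 (0.59), and the summed CPM overlapped (820 to 1292 and 1205 to 1918). With the replicate block 5 of the 14 rose at E8.5. Endoderm genes rose in 4 of 20 cases at E8.5 and 5 of 20 at E9.5 and fell in none. Sox17 led those called at both stages (0.90 and 1.09). With the replicate block 5 rose and 2 fell at E8.5, and more than 5 rose at E9.5. Of 13 trophoblast genes 2 rose and 1 fell at E8.5 (median 0.34; 5 and 1 with the block), and 5 rose and none fell at E9.5 (median 0.86), led at both stages by Hand1, which also acts in heart (1.32, SE 0.30, and 2.01, SE 0.31). Their summed CPM was 667 to 812 in controls and 974 to 1173 in KI at E8.5, and 230.1 to 454.6 and 663 to 700.3 at E9.5, with Prl3d1 at no more than 3 reads in each embryo. Primitive erythroid genes, which depend on GATA1, had a summed CPM of 967 to 1994 in controls and 221 to 309 in KI at E8.5, and of 4970 to 13300 and 942 to 4754 at E9.5. Of 11 such genes, 0 were called at E8.5 by edgeR without the replicate block (10 at an unadjusted p under 0.05, median -2.53), and 7 fell with it (median -2.51). At E9.5 1 was called without the block, Klf1, an erythroid factor (-2.74, SE 0.74), with a list median of -1.92. With the title number as a block more of the list was called lower at E9.5. The part of these tissues in the GATA values was not tested.

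Neuron genes went down at E9.5 (8 of 11 fell, none rose, median -1.53), with a summed CPM of 266 to 382 in controls and 116 to 121 in KI, while at E8.5 1 fell (2 of 10 with the replicate block). Of 11 neural progenitor genes 9 fell at E9.5 and none rose. Among 11 partner genes none was called at E8.5 by edgeR (2 at an unadjusted p under 0.05; 1 of 10 fell with the replicate block). At E9.5 Zfpm2, the cofactor of GATA4 in heart, rose (1.08, SE 0.23) and Lyl1, a blood bHLH factor, fell (-0.82, SE 0.26). Of 9 other GATA-type zinc finger genes none was called at E8.5 (1 at an unadjusted p under 0.05), and 1 rose and 3 fell at E9.5, led by Zglp1 (-1.56, SE 0.55) and Mta2 (-0.36, SE 0.05).

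The step from E8.5 to E9.5 was compared within each genotype, where 24.2% of all genes were called in controls (12.2% higher and 12.1% lower) and 32.5% in KI (15.9% higher and 16.6% lower). In controls 5 of 6 members fell: Gata4 (-1.37, SE 0.20, adjusted p = 0.000625), Gata5 (-1.37, SE 0.10, adjusted p = 2.28e-08), Gata6 (-0.88, SE 0.10, adjusted p = 3.14e-06), Gata3 (-0.56, SE 0.14, adjusted p = 0.0066) and Gata2 (-0.43, SE 0.15, adjusted p = 0.0432). The Gata2 call was lost in 6 of 11 alternatives, among them those without E8.5 control 2 or 3 and without E9.5 control 1 or 3. In KI embryos 2 fell, Gata5 (-0.86, SE 0.10, adjusted p = 5.49e-06) and Gata2 (-0.61, SE 0.15, adjusted p = 0.00443). Gata4 was at -0.54 (adjusted p = 0.0504; called in 4 of 11 alternatives), Gata6 at 0.22 (adjusted p = 0.078; called, at 0.30, without E8.5 KI embryo 3) and Gata3 at 0.09 (adjusted p = 0.673) between the KI stages.

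The test of the difference between these steps called 2 members and 6.63% of all genes (3.39% higher and 3.24% lower). Gata6 differed by 1.1012 (SE 0.14, adjusted p = 8.84e-05) and Gata5 by 0.51 (SE 0.14, adjusted p = 0.0366), the KI excess over control being larger at E9.5 than at E8.5 in both. The Gata6 difference held in each of 16 alternatives. The Gata5 difference was called in 5 of 16 and was lost without any 1 of the E8.5 KI embryos, the E9.5 KI embryos, E8.5 controls 1 and 2 and E9.5 controls 1 and 2. Gata3 (0.65, adjusted p = 0.0548) and Gata4 (0.83, adjusted p = 0.108) were not called. This difference was fitted without the replicate block.

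**Figure D4:**
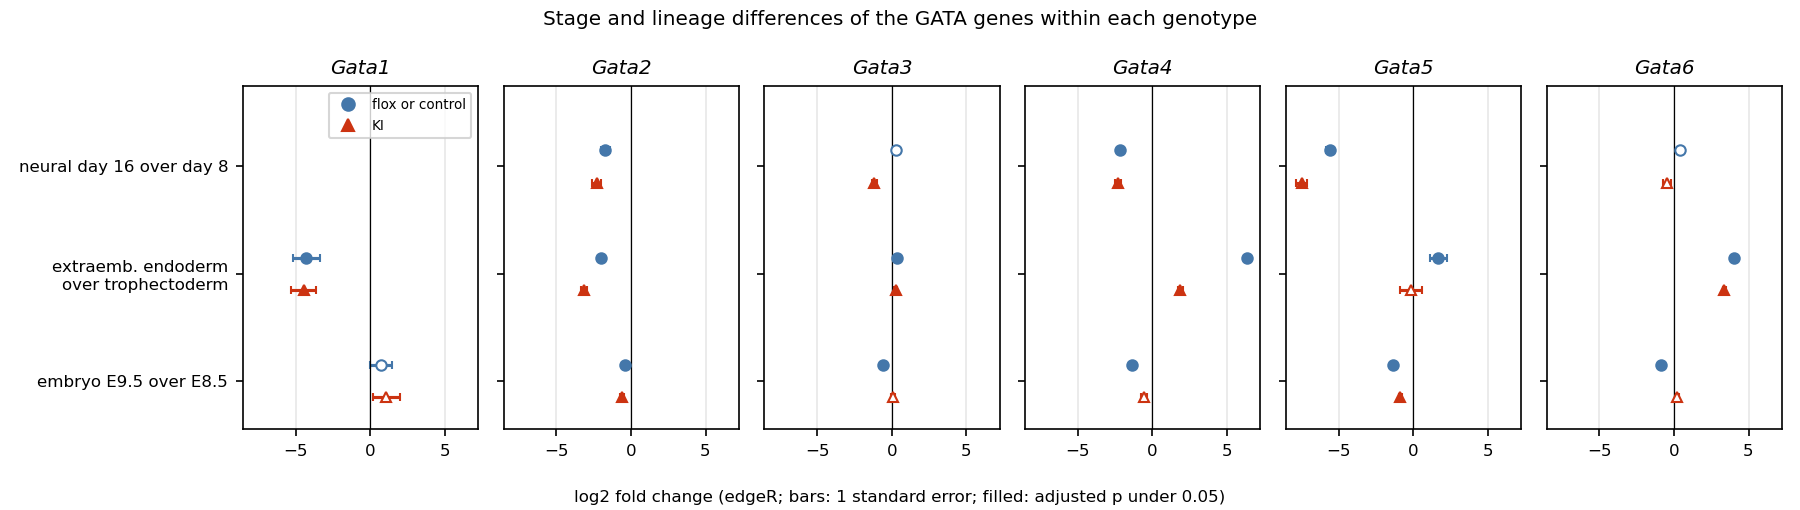
Log2 fold change between stages or cultures within each genotype (edgeR; bars are 1 standard error; filled points have an adjusted p under 0.05). Circles are flox or control and triangles KI. Gata4 shows the widest gap between genotypes, 6.34 in flox and 1.86 in KI between extraembryonic endoderm and trophectoderm.

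In neural cultures at day 8, 1 member was called higher and 3 lower in KI, of 5 tested, where 19.5% of all 16439 genes were called (6.30% higher and 13.2% lower). Gata3 had 2.27 and 2.01 CPM in flox and 8.93 and 6.75 CPM in KI, a rise of 1.90 on the log2 scale (SE 0.18, edgeR adjusted p = 1.23e-05). Gata2, which marks some interneurons, had 6.35 and 7.70 CPM in flox and 11 and 5.77 CPM in KI, with clone 27 above and clone 48 below both flox libraries (0.28, adjusted p = 0.544). Gata5 had 6.96 and 6.94 CPM in flox and 3.79 and 4.34 CPM in KI (-0.74, SE 0.16, adjusted p = 0.00532), a call lost without flox library 1, flox library 2 or KI clone 27 (-0.74, -0.74 and -0.64).

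Gata4 and Gata6 fell in the same cultures. Gata4 had 42.0 CPM in both flox libraries and 7.53 and 6.92 CPM in KI (-2.51, SE 0.17, adjusted p = 1.05e-06), and Gata6 36.8 and 34.4 CPM in flox and 12.7 and 9.68 CPM in KI (-1.64, SE 0.27, adjusted p = 0.00309). No KI library overlapped the flox libraries for either gene. Gata1 had 1 and 5 reads in flox and 0 in both KI clones and was too low to test. Gata4 and Gata6 made up 43.4% and 39.1% of the family's RPKM in flox and 18.2% and 29.5% in KI, and the summed RPKM was 18.4 to 18.5 in flox and 6.59 to 8.86 in KI.

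At day 16, 3 of 5 tested members were lower in KI and none higher, where 46.9% of all genes were called (27.1% higher and 19.7% lower). Gata6 had 44.5 and 48.8 CPM in flox and 9.38 and 4.63 CPM in KI (-2.54, SE 0.27, adjusted p = 0.000159). Gata4 had 9.28 and 8.92 CPM in flox and 1.70 and 0.868 CPM in KI (-2.64, SE 0.20, adjusted p = 1.32e-06). In both genes clone 48 was the lower clone. Gata5 had 9 and 4 reads in flox and 1 in each KI clone, so flox was 7.87-fold higher with a 95% counting interval of 1.78 to 71.9. It was called (adjusted p = 0.00753), but not without flox library 1 or KI clone 48. Gata3 (2.42 and 2.72 CPM in flox, 3.22 and 2.87 in KI, adjusted p = 0.0588) and Gata2 (1.84 and 2.41 in flox, 1.68 and 1.25 in KI, adjusted p = 0.433) were not called.

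From day 8 to day 16 in flox, Gata2 (-1.71, SE 0.29), Gata4 (-2.17, SE 0.17) and Gata5 (-5.60, SE 0.25) fell, with 77.1% of all genes called (38.4% higher and 38.7% lower). In KI the same 3 fell, Gata2 by -2.31, Gata4 by -2.30 and Gata5 from 377 to 2 reads over the 2 clones, and Gata3 fell too (-1.16, SE 0.17, adjusted p = 4.12e-05), with 79.9% of all genes called (40.7% higher and 39.2% lower). Gata6 was not called in flox (0.42, adjusted p = 0.155) or in KI (-0.48, adjusted p = 0.14). The test of the difference between the steps called 1 member, Gata3 (-1.45, SE 0.26, adjusted p = 0.00111), and 33.2% of all genes (19.2% higher and 14.0% lower). Correlations of deviations between days 8 and 16 were low, at 0.193 for the flox numbers and 0.025 for the KI clones. Because the KI clones are the same at both days, they were also fitted as a replicate block together with the flox numbers. Gata6 was then called in flox (0.42, adjusted p = 0.00245), in KI (-0.53, adjusted p = 0.000739) and for the difference (-0.95, adjusted p = 0.000104), with 36.0% of all genes called for the difference. Without the block, leaving out clone 27 of day 16 also called Gata6 (-1.47) and Gata4 (-0.66) for the difference and Gata6 for the KI step (-1.04), and leaving out clone 48 of day 8 called Gata2 for the difference (-0.99).

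Other cell types were measured in the same neural libraries. At day 8, 8 of 9 endothelial and megakaryocyte genes fell and none rose (median -2.41), among them the vascular genes Tek (-2.91), Erg (-2.88) and Kdr (-2.78), with a summed CPM of 107.2 to 107.7 in flox and 16.9 to 23.0 in KI. Of 19 endoderm genes 12 fell and 3 rose (median -0.98, summed CPM 1062 to 1066 in flox and 744 to 772 in KI). Of 10 erythroid genes 5 fell (summed CPM 19.0 to 19.5 and 4.18 to 4.38), and of 12 heart genes 5 fell, led among those with more than 3 reads in each library by Tbx5, a cardiac T-box factor (-4.29, SE 0.19). At day 16, 10 of 19 endoderm genes fell and 1 rose (median -0.67). Of 9 endothelial and megakaryocyte genes 2 fell at day 16, among them Kdr (-4.74, SE 0.30), and 1 rose, Emcn (1.15, SE 0.36), with a median of -0.28. Their summed CPM was 49.7 to 53.0 in flox and 6.15 to 9.23 in KI. Of 10 trophoblast genes 6 fell at day 16 and none rose (median -1.65), led by the keratin genes Krt7 (-6.12, SE 0.38), Krt18 (-4.33, SE 0.25) and Krt8 (-4.11, SE 0.30), and at day 8 2 rose and 1 fell (median -0.14). The summed CPM of this list at day 16 was 24.6 to 28.7 in flox and 8.72 to 9.64 in KI, and Cdx2, Eomes, Elf5, Hand1, Prl3d1 and Prl2c2 had at most 3 reads in every library of that day. All 11 neuron genes rose at day 16 (median 0.83), after 8 of 11 fell at day 8 (median -0.66). Of 9 sympathetic, otic and renal genes 2 rose and 3 fell at day 8, among them Th (-2.60) and Ret (-2.11), and of 11 neural progenitor genes 5 rose and 2 fell. The part of these cell types in the GATA values was not tested.

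Of 10 partner genes tested in neural cultures, 5 fell at day 8, among them the blood and vascular bHLH factors Tal1 (-2.78, SE 0.29) and Lyl1 (-2.05, SE 0.39). At day 16, 6 fell and 1 rose, Tal1 (2.19, SE 0.27), while Runx1 fell (-2.10, SE 0.30). Genes of GATA2- and GATA3-dependent neurons were called once at each day of 5 tested, Slc6a4 lower at day 8 (-1.80) and Gad1, a GABA synthesis enzyme, higher at day 16 (0.45). Among 9 other GATA-type zinc finger genes none was called at day 8, and 1 rose and 4 fell at day 16, led by Gatad2a (-0.71, SE 0.10).

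In the EB course the flox reference has 1 library a day. Gata4 rose from 2.96 CPM in flox stem cells to 84.6 at day 4 and 356 at day 10, and Gata6 from 0.211 to 45.0 and 362. The KI clones 27 and 48 gave 4.37 and 4.25, 39.2 and 35.2, and 304 and 239 CPM for Gata4, and 0.467 and 0.757, 36.2 and 39.0, and 269 and 304 CPM for Gata6. Both clones thus followed flox upward, with Gata4 and Gata6 lower than in the 1 flox library at days 4 and 10. Gata2 was also lower at day 4, at 3.68 CPM in flox and 1.60 and 1.63 in KI. Gata3 reached 16.9 CPM in flox and 44.0 and 26.4 CPM in KI at day 10, and Gata2 9.43 CPM in flox and 15.8 and 9.21 in KI.

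**Figure D5:**
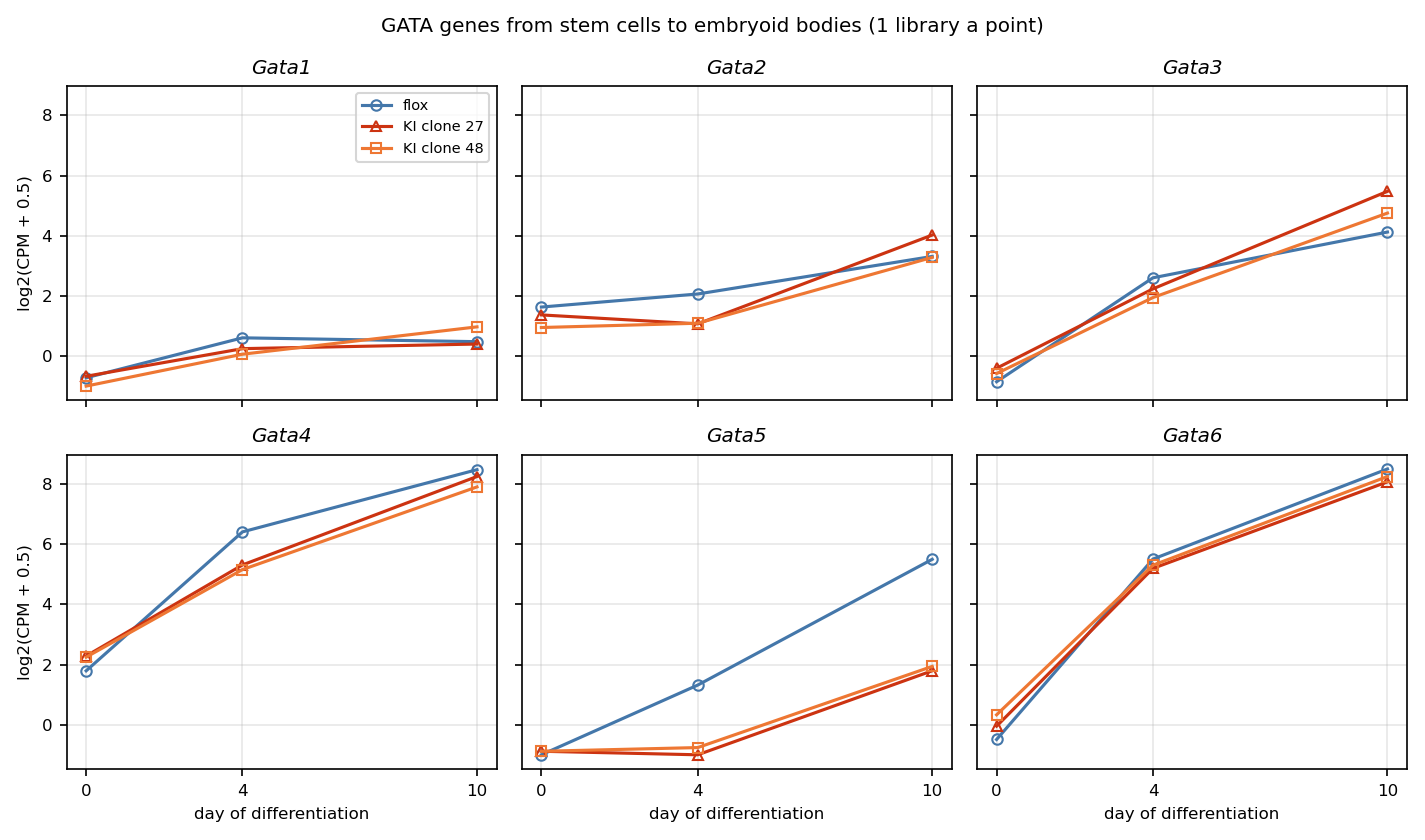
Level of each GATA gene, as log2(CPM + 0.5), against the day of differentiation in the flox library (circles) and KI clones 27 (triangles) and 48 (squares). The lines of Gata6 lie close together, while those of Gata5 part between flox and both KI clones at days 4 and 10.

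Gata5 set the genotypes apart. It had 0, 39 and 1153 reads in flox at days 0, 4 and 10, and 1, 0 and 58 reads in clone 27 and 1, 2 and 80 reads in clone 48, or 44.7 CPM in flox at day 10 against 2.97 and 3.33 in KI. At day 4 clone 27, with 0 reads, was at least 11.3-fold lower (lower end of the 95% counting interval). Clone 48 was 22.0-fold lower (95% counting interval 5.70 to 188). At day 10 the clones were 15.1-fold (11.6 to 20.0) and 13.4-fold (10.7 to 17.1) lower. Averaged over the 3 days, with day as a factor, the KI effect was called for Gata5 alone of 6 members (-3.87, SE 0.58, adjusted p = 0.0371), where 0.707% of all genes were called (0.400% higher and 0.306% lower). This call was lost without flox day 10 and without any 1 of the 6 KI libraries (-3.606 to -4.0019). The fit treated these 6 libraries, which are clones 27 and 48 on 3 days, as independent.

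On single days, KI against flox had no test, and a gene was counted where both clones differed at least 2-fold in the same direction, after adding 0.5 CPM, and only genes that reached 1 CPM were considered. None of 2 such GATA genes counted at day 0, where 7.68% of all genes did. At day 4 Gata4 and Gata5 counted as lower, of 6, where 4.43% of all genes were lower, and at day 10 Gata5 did, where 3.91% were lower. Heart genes had a summed CPM of 2728 in flox and 747 to 783 in KI at day 10 and endoderm genes 5386 in flox and 10290 to 11140 in KI. Of the 14 heart genes 1 was called lower over the course.

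Within KI, between stem cells and day 4, 4 members rose: Gata6 (5.83, SE 0.18), Gata3 (4.03, SE 0.44), Gata4 (3.01, SE 0.15) and Gata1, with 50.3% of all genes called (26.5% higher). Gata1 rested on 3 reads in stem cells and 27 at day 4, a 9.69-fold difference with a 95% counting interval of 2.98 to 49.9 (adjusted p = 0.0206), and the call was lost without clone 48 in stem cells or either clone at day 4. From day 4 to day 10, 5 members rose and 73.3% of all genes were called (36.7% higher). Gata3 (3.14), Gata2 (2.86), Gata6 (2.85) and Gata4 (2.79) rose alike, and Gata5 went from 2 to 138 reads over the clones, 69.7-fold with an interval of 18.9 to 581. Gata1 was not called (0.82, adjusted p = 0.228).

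Finally, the genes whose level was most like that of each member were listed over the 18 group means, by Pearson's r of log2(CPM + 0.5) among 16560 genes. These means share libraries, depth and, in part, clones, so r is a description. For Gata1 they included Cited4 (r = 0.921) and Slc25a37, a mitochondrial iron importer (0.908). For Gata2 they were Flii (0.944), Cln6 (0.935) and Epn3 (0.930), and for Gata3 Pon2 (0.947), Morc4 (0.939) and Chst14 (0.938). For Gata4 they were Prdm6 (0.929), Bmp5, a BMP ligand (0.915), and Slc6a4, the serotonin transporter (0.896). For Gata5 they were Stab1 (0.937), Foxc2 (0.934) and Col9a1 (0.921), and for Gata6 Has2, a hyaluronan synthase (0.945), Stbd1 (0.941) and Myl9 (0.937). Within the family Gata4 and Gata6 were most alike (0.847), then Gata2 and Gata3 (0.777), and Gata2 and Gata4 were unrelated in level (0.004).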

How the data were processed

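Poly(A)-selected RNA libraries were made with NEBNext kits, per the labels' protocols, and the submitters' processing notes name the genome build mm9 and the tools bcl2fastq, Bowtie2, STAR and SICER 1.1 without giving their roles. The counter, the annotation and the use of strand are not given in the sources used here. Each of the 37 deposited tables gives a read count and an RPKM for 29082 transcripts. The deposited RPKM values equal the counts divided by transcript length and by the table's total, checked on the values. The 28436 transcripts that matched a gene symbol were reduced to the transcript with the most reads per gene, giving 23109 entries, and 646 unmatched transcripts (1.25% to 2.13% of reads) were left out. The other 63 samples of the series were not analysed here.

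Counts were tested with edgeR 4.0.16 (R 4.3.3, limma 3.58.1): filterByExpr with a minimum count of 10, TMM, a robust quasi-likelihood fit and Benjamini-Hochberg adjustment over all genes, in 18 comparisons. The libraries of an experiment shared 1 fit. Alternatives were DESeq2 1.42.0, RLE size factors, no filter, only the libraries compared, the sum over transcripts, a replicate block and leaving out each library. Ratios of low read counts have exact 95% counting intervals. Tables and figures used Python 3.11.15, pandas 2.3.3, numpy 2.4.6, scipy 1.17.1 and matplotlib 3.10.9. The fits were tested on simulated counts.

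Replicate pairs of a group differed beyond sampling noise (chi-square per degree of freedom 1.50 to 54.83 in 23 pairs). The numbers in the E8.5 embryo titles pair control and KI (correlations of deviations 0.283, 0.221 and 0.104), and KI clones 27 and 48 are the same clones at every stage. For each comparison the text names the GATA genes and, of each list, at most 3 called genes, those with the largest change, and for each GATA gene the 3 genes most like it in level, of which 1 is not reported here. Cdx2, Prl3d1, Sox17 in extraembryonic endoderm and, in neural cultures, Eomes, Elf5, Hand1 and Prl2c2 lie outside that rule and were chosen after their values were seen. The members and the 12 gene lists (146 genes, 145 found) were chosen with earlier results of these data known.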

Additional observations from a re-analysis of the deposited data

Results flagged for a closer look

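The effect of KI differed between settings, by a test of the difference itself (edgeR interaction term, adjusted over all genes), for 6 results. Between extraembryonic endoderm and trophectoderm cultures the KI effect on Gata4 differed by -4.48 on the log2 scale (adjusted p = 3.29e-07), that on Gata2 by -1.17 (adjusted p = 0.0204) and that on Gata6 by -0.65 (adjusted p = 0.00345). Gata4 was higher in KI in trophectoderm and lower in KI in endoderm. Between neural days 16 and 8 the KI effect on Gata3 differed by -1.45 (adjusted p = 0.00111), with 7.84 ± 1.54 CPM in KI at day 8 and 3.05 ± 0.246 at day 16 (SD, n = 2 each). Between E9.5 and E8.5 embryos the KI effect on Gata6 differed by 1.1012 (adjusted p = 8.84e-05) and that on Gata5 by 0.51 (adjusted p = 0.0366). The Gata5 difference was called in only 5 of 16 alternative fits and the Gata2 difference in 9 of 13. The differences of Gata3, Gata4 and Gata6 were called in every alternative.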

How the results depend on the processing

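Over the GATA genes, DESeq2 kept direction and call in 97 of 103 values, RLE size factors in 101, no filter on low counts in 100, the sum over transcripts in 102, only the libraries compared in 71 of 77, the replicate block in 50 of 57 (the other 7 gained a call) and the fits without 1 library in 499 of 582. The number of GATA genes called in the neural interaction went from 1 to 2 with the replicate block (33.2% and 36.0% of all genes called) and was 1 to 3 without 1 library (21.7% to 36.2%). At E8.5 it went from 2 to 4 with only the libraries compared and to 5 with the replicate block (5.46%, 5.79% and 8.68%), and was 1 to 2 without 1 library (2.31% to 4.81%). For the embryo interaction it went from 2 to 4 with DESeq2 and to 1 without the filter (6.63%, 7.25% and 5.20%), and was 1 to 3 without 1 library (3.87% to 7.48%). For the EB course it was 0 to 1 without 1 library (0.163% to 2.25%, against 0.707% with all). On EB day 4 it went from 2 to 3 with 0.1 CPM added, where 613 and 751 of 13843 genes were lower. TMM-scaled CPM gave 332.8 for Gata4, 41.8 for Gata5 and 338.2 for Gata6 in flox EBs of day 10. In the cases above the cause was not tested.

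The sign of Gata5 from stem cells to EB day 4 in KI, with at most 2 reads per library, turned with DESeq2 (-0.0092) and RLE size factors (-0.0041). Without 1 library the following values, uncalled with all libraries, changed sign, given as lowest and highest log2: neural day 8 Gata2 -0.25 and 0.67, neural interaction Gata4 -0.66 and 0.27, extraembryonic endoderm Gata1 -4.35 and 4.86, KI endoderm over trophectoderm Gata5 -0.80 and 0.57, the interaction of these cultures Gata1 -5.02 and 4.22 and Gata3 -0.19 and 0.0457, E9.5 Gata2 -0.17 and 0.036, control stage Gata1 -0.14 and 1.00, KI stage Gata1 -0.12 and 1.50 and Gata3 -0.045 and 0.19, embryo interaction Gata1 -0.84 and 1.22, EB course Gata1 -0.72 and 0.12 and Gata3 -0.28 and 1.11, and EB day 4 over stem cells Gata2 -0.45 and 0.0687 and Gata5 -3.19 and 0.92. At E9.5 the title numbers recur within a group and not every pair correlated, and the replicate block called Gata1 (-2.06, adjusted p = 1.19e-05), 11 of 11 erythroid genes as lower (1 without it) and 13 of 20 endoderm genes as higher (5 without it). The block changed no other GATA call beyond those printed in the report. Depth limits Gata1 in stem cell, neural and extraembryonic endoderm libraries (0 to 6 reads each) and Gata5 in stem cell, neural day 16 and KI EB day 4 libraries.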
